A study of Homo sapiens with 4 samples.

Results

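Families of related cancer-testis genes, each with several members on the X chromosome, were followed in FaDu cells, a head and neck squamous carcinoma line, after a combined treatment with Aza and TSA. The members were taken by symbol as the rows of the GAGE, PAGE, XAGE, SSX, SPANX, CT45A, CT47A, CTAG, VCX and CSAG families, leaving out SSX2IP, which carries the SSX name for its binding partner only. This gave 81 of the 25548 genes in the expression table, in 10 families. The treated FaDu cells received 5 µM Aza, which is 5-aza-2'-deoxycytidine, on days 1 to 3 and 100 nM TSA, which is trichostatin A, on day 3. The FaDu control cells received vehicle on the same days, DMSO for Aza and ethanol for TSA, and their library is labelled DMSO only. Messenger RNA was sequenced from 1 library of each group, so no value here has a replicate check and no p-value is given. Whether the cells came from separate cultures is not stated. Levels are in FPKM, fragments per kilobase of transcript scaled to the size of the library, so that genes of different length can be compared.

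Cancer-testis genes are made in male germ cells and are kept silent in most other tissues, in large part by methylation of CG dinucleotides at their promoters. Aza is built into DNA and traps the DNA methyltransferases, so that methylation is lost as cells divide, and TSA inhibits histone deacetylases, enzymes that help to keep chromatin closed. Many cancer-testis families on the X chromosome lie in repeated blocks, and their proteins are studied as tumour antigens because T cells can recognise them.

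The FaDu columns held values of a squamous carcinoma line. All 9 squamous epithelial markers checked, KRT5 and TP63 among them, were at 1 FPKM or more in both libraries, with summed levels of 2274 FPKM in treated cells and 2475 FPKM in DMSO cells. Single markers differed, with KRT5 at 226 and 687 FPKM, TP63 at 23.2 and 73.7 FPKM and KRT14 at 147 and 49.8 FPKM in the treated and DMSO libraries. Of 10 male germ cell markers, 3 were at 1 FPKM or more in treated cells and 1 in DMSO cells, and 5 were listed at 0 in both, among them the protamines PRM1 and PRM2. The summed germ cell list was at 114 FPKM in treated cells and 14.8 FPKM in DMSO cells, with DAZL at 79.6 and 0 FPKM and SYCP3 at 13.9 and 0.152 FPKM in the treated and DMSO libraries. Nearly all of the DMSO sum was TSPYL1, the only marker of the list above 1 FPKM there. TSPYL1 was at 19.8 FPKM in treated cells and 14.6 FPKM in DMSO cells. Summed levels of the leukocyte, fibroblast and endothelial lists, 1 or none of whose 3 or 4 markers reached 1 FPKM in either library, were 3.36 to 4.91 FPKM in treated cells and 0.794 to 1.67 FPKM in DMSO cells. Of their defining markers, PTPRC was at 0.0385 and 0.0513 FPKM, COL3A1 at 0.0113 and 0.0450 FPKM and PECAM1 at 0.0140 and 0 FPKM in the treated and DMSO libraries. In each list 1 marker reached 1 FPKM in treated cells and was higher there, CD14 at 4.59 and 1.62 FPKM, COL1A1 at 3.08 and 0.749 FPKM and CDH5 at 2.85 and 0.743 FPKM in the treated and DMSO libraries. The part of these lists in the results was not tested, and in bulk RNA fewer expressing cells and less RNA per cell cannot be told apart. The series has 2 more libraries, from UMSCC47 cells, whose columns were not used. Their rows did not follow the gene names, with GAPDH at 0.177 and 0.290 FPKM in the treated and DMSO UMSCC47 columns, against 2971 and 2590 FPKM in the treated and DMSO FaDu columns.

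Most members of these families were near 0 in DMSO cells and expressed in treated cells. In DMSO cells 71 of the 81 members were under 0.1 FPKM, and 49 of these were listed at 0. Of those 71, 57 (80.3%) were at 1 FPKM or more in treated cells, which is called switched on here. Among all genes under 0.1 FPKM in DMSO cells, 524 of 9984 (5.25%) were switched on, so members made up 10.9% of the switched-on genes. The median level in treated cells was 15.9 FPKM over the switched-on members and 2.81 FPKM over the other genes switched on. Of all 155 switched-on genes at 10 FPKM or more in treated cells, 37 were members.

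Counted by fold, 63 of the 65 members that reached 1 FPKM in at least 1 library were at least 2-fold higher in treated cells on the log2(FPKM + 1) scale. None was at least 2-fold lower. Over all genes that reached 1 FPKM in at least 1 of the libraries, 16.1% were higher by this rule and 5.21% lower. A member listed at 0 in DMSO cells that reached 1 FPKM could only be called higher, so the count of higher members rests partly on the filter. A lower call on this scale needs at least 1 FPKM in DMSO cells, which only 2 members had. The absence of lower members was thus nearly fixed in advance. The median change over all 81 members, expressed or not, was 3.62 on the log2(FPKM + 1) scale, against 0 over all genes of the table and 0.13 over the genes that reached 1 FPKM. By any amount, 74 members were higher in treated cells, 1 was lower and 6 were listed at 0 in both libraries. The 16 members that stayed under 1 FPKM in both libraries belonged to 4 families, SPANX with 6, XAGE with 5, SSX with 3 and PAGE with 2.

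**Figure D1:**
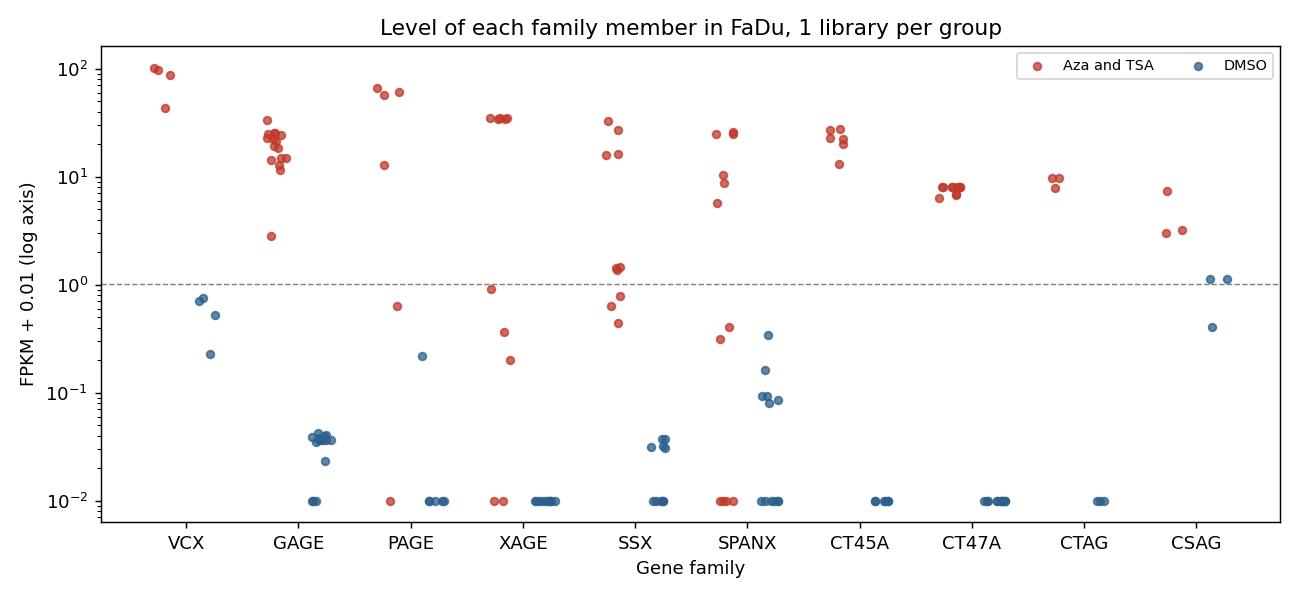
Each point is 1 gene of the family named on the x axis, at its level in the treated library (red, left) or the DMSO library (blue, right), spread sideways for legibility. The y axis is FPKM + 0.01 on a log scale, so genes listed at 0 lie at the bottom, and the dashed line marks 1 FPKM. In the DMSO library 2 members, CSAG2 and CSAG3, lie above the line, and in the treated library 65 members do.

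The VCX genes, which encode small proteins of variable charge made in male germ cells, had the highest levels of any family in treated cells. VCX3B was at 102 FPKM in treated cells and 0.690 FPKM in DMSO cells. VCX was at 98.1 FPKM in treated cells and 0.736 FPKM in DMSO cells. VCX3A was at 87.2 FPKM in treated cells and 0.509 FPKM in DMSO cells. All 3 were thus within a narrow range in each library. VCX2, which carries few copies of the repeat that gives the family its variable length, was the lowest in each library, at 43.5 FPKM in treated cells and 0.220 FPKM in DMSO cells. The levels in treated cells were 133 to 198 times those in DMSO cells. No VCX gene was under 0.1 FPKM in DMSO cells, so none could be counted as switched on although all 4 were called higher. Summed over the family, VCX transcripts came to 331 FPKM in treated cells and 2.15 FPKM in DMSO cells. Longest transcripts of the 4 genes in GENCODE release 29 were 68.6% to 89.6% identical to each other.

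The GAGE genes encode short acidic proteins found in germ cells and lie in a long tandem block. All 16 members were under 0.1 FPKM in DMSO cells and all 16 were switched on. The family sum was 309 FPKM in treated cells and 0.348 FPKM in DMSO cells. The highest member in treated cells was GAGE12F, at 33.5 FPKM and listed at 0 in DMSO cells. GAGE2A was at 25.5 FPKM in treated cells and 0.0283 FPKM in DMSO cells, and GAGE12J at 25.5 and 0.0266 FPKM in the same order. GAGE2B was at 24.6 FPKM in treated cells and listed at 0 in DMSO cells. The 5 GAGE2 copies lay between 21.4 and 25.5 FPKM in treated cells, and the 9 copies named GAGE12 or GAGE13 between 12.8 and 33.5 FPKM. GAGE10 was at 11.5 FPKM in treated cells and 0.0133 FPKM in DMSO cells. GAGE1 stood apart at 2.78 FPKM in treated cells and 0 in DMSO cells. Its longest GENCODE transcript has 2873 bases, against 403 to 585 bases for the other 11 GAGE genes with one, and the part of annotated length in its FPKM was not tested.

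Single GAGE copies may not be separate measurements. Of the 66 pairs of GAGE transcripts, 27 were at least 95% identical, and GAGE12C and GAGE12E had equal values in each library, 14.965 FPKM in treated cells and 0.0266 FPKM in DMSO cells. RefSeq (GRCh38.p14) gives a window of 300 bases, 250 before and 50 after the annotated start, for 11 GAGE genes of the table, and 7 of these windows have the same letters. The shared window is shown at GAGE2A (chrX:49589246-49589545, plus strand, GRCh38.p14), because it stands for a whole tandem block, with CG dinucleotides, the letters that carry DNA methylation, in capitals:

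GAGE2A: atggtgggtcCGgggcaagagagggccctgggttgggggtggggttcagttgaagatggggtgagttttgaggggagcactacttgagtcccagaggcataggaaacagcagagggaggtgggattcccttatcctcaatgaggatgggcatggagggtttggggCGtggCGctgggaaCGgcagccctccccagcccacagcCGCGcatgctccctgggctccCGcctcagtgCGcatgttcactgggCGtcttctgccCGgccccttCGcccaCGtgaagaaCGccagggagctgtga

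This window holds 13 CG dinucleotides. The 7 genes that share it had 14.1 to 33.5 FPKM in treated cells and at most 0.0283 FPKM in DMSO cells, so genes with the same window letters had values that differed up to 2.37 times in treated cells.

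Within the PAGE family, which encodes small proteins related to GAGE, 4 of 6 genes were at 10 FPKM or more in treated cells and the others stayed under 1 FPKM. PAGE2B was at 65.8 FPKM in treated cells and 0.207 FPKM in DMSO cells. PAGE5 was at 61.3 FPKM, PAGE2 at 57.4 FPKM and PAGE1 at 12.9 FPKM in treated cells, and all 3 were listed at 0 in DMSO cells. PAGE4, a prostate protein that modulates the AP-1 transcription factor, was at 0.620 FPKM in treated cells and 0 in DMSO cells. PAGE3 was listed at 0 in both. The windows at PAGE5 (chrX:55220096-55220395, plus strand, GRCh38.p14) and PAGE4 (chrX:49829010-49829309, plus strand, GRCh38.p14) are shown because one gene was among the 3 highest of the family in treated cells and the other stayed under 1 FPKM, with CG in capitals:

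PAGE5: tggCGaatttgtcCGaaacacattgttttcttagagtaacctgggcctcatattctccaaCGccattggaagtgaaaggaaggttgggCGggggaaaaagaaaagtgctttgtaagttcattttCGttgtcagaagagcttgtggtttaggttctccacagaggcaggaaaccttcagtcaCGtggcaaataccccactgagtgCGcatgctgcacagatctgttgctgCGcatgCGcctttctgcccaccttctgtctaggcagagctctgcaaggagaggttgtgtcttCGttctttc
PAGE4: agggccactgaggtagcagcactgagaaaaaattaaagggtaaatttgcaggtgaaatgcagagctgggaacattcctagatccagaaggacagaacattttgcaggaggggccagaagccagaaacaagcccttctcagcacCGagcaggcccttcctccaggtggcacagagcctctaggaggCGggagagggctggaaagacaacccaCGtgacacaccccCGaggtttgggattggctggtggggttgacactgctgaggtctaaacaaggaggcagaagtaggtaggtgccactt

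They were 62.0% identical. PAGE5 has 10 CG dinucleotides, PAGE2 13, PAGE2B 12 and PAGE1 13, whereas PAGE4 has 4 and PAGE3 has 5. The 3 most expressed PAGE genes have windows that were 74.3% to 87.0% identical to each other. In gene order PAGE2B, PAGE2, PAGE5 and PAGE3 lie in 1 cluster, with 1 other coding gene, FAM104B, between them. FAM104B was at 5.41 FPKM in treated cells and 7.57 FPKM in DMSO cells, so it was not higher beside genes that were at 57.4 FPKM or more.

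The XAGE family split in the same way. The 5 rows of XAGE1, an antigen of lung adenocarcinoma and Ewing sarcoma, were at 34.3 to 34.7 FPKM in treated cells, and all 5 were listed at 0 in DMSO cells. XAGE1A, XAGE1D and XAGE1E shared 1 value, 34.7 FPKM in treated cells, and XAGE1B and XAGE1C shared another, 34.3 FPKM. In the current RefSeq table the names XAGE1C, XAGE1D and XAGE1E are synonyms of XAGE1B, and the transcripts of XAGE1A and XAGE1B were 100% identical, so these 5 rows may not be separate measurements. The remaining 5 XAGE rows were under 1 FPKM in treated cells and listed at 0 in DMSO cells. XAGE2B was at 0.901 FPKM, XAGE2 at 0.352 FPKM and XAGE3, which is known from placenta, at 0.191 FPKM in treated cells, and XAGE5 and XAGE-4 were listed at 0 there. XAGE1A is shown (chrX:52495627-52495926, plus strand, GRCh38.p14) as the most expressed XAGE gene, with CG in capitals:

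XAGE1A: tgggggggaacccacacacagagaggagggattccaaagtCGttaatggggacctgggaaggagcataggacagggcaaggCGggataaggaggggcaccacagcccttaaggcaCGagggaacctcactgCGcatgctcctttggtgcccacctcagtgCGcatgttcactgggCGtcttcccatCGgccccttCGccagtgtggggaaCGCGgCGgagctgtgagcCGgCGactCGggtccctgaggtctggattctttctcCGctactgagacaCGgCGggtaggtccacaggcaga

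It has 17 CG dinucleotides. XAGE3 has 14, XAGE2 has 10 and XAGE5 has 8, and these 3 genes were not switched on. Over all RefSeq windows the median was 14.

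SSX genes encode nuclear repressors with a KRAB-like domain, and in synovial sarcoma the end of SSX1, SSX2 or, rarely, SSX4 is fused to SS18, a subunit of a chromatin remodelling complex. All 10 members were under 0.1 FPKM in DMSO cells and 7 were switched on, in 2 separate ranges. SSX1 was at 33.0 FPKM and SSX3 at 26.9 FPKM in treated cells, both listed at 0 in DMSO cells. SSX2 was at 16.2 FPKM in treated cells and 0.0217 FPKM in DMSO cells. SSX2B, with a transcript 100% identical to that of SSX2, was at 15.9 FPKM in treated cells and 0.0216 FPKM in DMSO cells. These 4 genes were far above the other 6. SSX4B was at 1.43 FPKM in treated cells and 0.0273 FPKM in DMSO cells, SSX5 at 1.42 FPKM in treated cells and 0 in DMSO cells, and SSX4 at 1.36 FPKM in treated cells and 0.0272 FPKM in DMSO cells. SSX7, SSX6 and SSX8 were at 0.772, 0.628 and 0.432 FPKM in treated cells. The last pair are listed as transcribed pseudogenes in the current RefSeq table.

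The windows at SSX2B (chrX:52751002-52751301, plus strand, GRCh38.p14) and SSX5 (chrX:48196746-48197045, minus strand, GRCh38.p14) are shown with CG in capitals. As placed at the annotated starts they had the highest identity of the SSX windows, and they stand before genes from the 2 ranges:

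SSX2B: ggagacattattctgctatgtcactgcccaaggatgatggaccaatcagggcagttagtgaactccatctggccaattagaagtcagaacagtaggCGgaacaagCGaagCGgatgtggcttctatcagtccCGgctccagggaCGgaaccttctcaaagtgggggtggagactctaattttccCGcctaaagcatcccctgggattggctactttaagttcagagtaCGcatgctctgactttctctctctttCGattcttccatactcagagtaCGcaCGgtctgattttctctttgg
SSX5: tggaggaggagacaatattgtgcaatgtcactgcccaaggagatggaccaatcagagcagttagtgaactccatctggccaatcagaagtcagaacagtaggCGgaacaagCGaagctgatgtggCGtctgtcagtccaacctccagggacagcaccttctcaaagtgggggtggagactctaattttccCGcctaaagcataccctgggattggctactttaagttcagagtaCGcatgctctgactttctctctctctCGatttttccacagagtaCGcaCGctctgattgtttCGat

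They were 90.7% identical and hold 10 and 9 CG dinucleotides, while the level in treated cells was 15.9 FPKM for SSX2B and 1.42 FPKM for SSX5. The SSX2 window is shifted against that of SSX2B and was 83.7% identical to it, although the stretch they share has the same letters. SSX1, the most expressed, has 5 CG dinucleotides and a window that was 57.3% to 60.3% identical to the other SSX windows in the listed direction. A long stretch of the SSX1 window matches that of SSX2B closely when read on the opposite strand. These percents therefore do not measure how alike the SSX1 window is to the others. The SSX genes lie in 2 clusters on the X chromosome, and each cluster held members of the high and of the low range. Of the partners of SSX proteins, SS18 was at 16.0 FPKM in treated cells and 22.2 FPKM in DMSO cells, and SSX2IP, a centrosome protein, at 6.26 FPKM in treated cells and 10.5 FPKM in DMSO cells. Neither differed by 2-fold.

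SPANX genes encode proteins of the spermatid nucleus and fall into an A to D branch and an N branch. All 6 genes of the A to D branch were switched on and no gene of the N branch was. SPANXC was at 25.7 FPKM in treated cells and 0.0748 FPKM in DMSO cells. SPANXB1 and SPANXB2 shared 1 value, 24.6 FPKM in treated cells and 0 in DMSO cells, and the second name is a synonym of the first in the current RefSeq table. SPANXA1 was at 10.2 FPKM, SPANXA2 at 8.75 FPKM and SPANXD at 5.74 FPKM in treated cells, and in DMSO cells they were at 0.0832, 0.0699 and 0.0832 FPKM. In the N branch, SPANXN3 was at 0.306 FPKM in treated cells and 0.153 FPKM in DMSO cells, a ratio of 2.00, which counts of a few reads can give. SPANXN5 was listed at 0 in treated cells and at 0.335 FPKM in DMSO cells, the only member of any family that was lower in treated cells. SPANXN1, SPANXN2 and SPANXN4 were listed at 0 in both. SPANXA2-OT1, a noncoding transcript that spans SPANX genes, was at 0.395 FPKM in treated cells and 0 in DMSO cells. Summed, the A to D branch was at 99.7 FPKM in treated cells and 0.311 FPKM in DMSO cells, and the N branch at 0.306 FPKM in treated cells and 0.488 FPKM in DMSO cells.

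Windows of the SPANX branches were compared as placed at the annotated starts. Those of SPANXA1, SPANXA2 and SPANXC were 87.0% to 90.3% identical to the N branch, that of SPANXB1 80.7% to 82.0%, and that of SPANXD 57.3% to 59.0%. The SPANXD window ends with the letters that open the SPANXC window, so it covers another stretch and its percents do not measure divergence. The SPANXB1 window is also shifted against that of SPANXC, by less. SPANXC (chrX:141242468-141242767, minus strand, GRCh38.p14) and SPANXN3 (chrX:143517426-143517725, minus strand, GRCh38.p14) are shown because they hold the highest level in treated cells of each branch among genes with a window, and CG is again in capitals:

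SPANXC: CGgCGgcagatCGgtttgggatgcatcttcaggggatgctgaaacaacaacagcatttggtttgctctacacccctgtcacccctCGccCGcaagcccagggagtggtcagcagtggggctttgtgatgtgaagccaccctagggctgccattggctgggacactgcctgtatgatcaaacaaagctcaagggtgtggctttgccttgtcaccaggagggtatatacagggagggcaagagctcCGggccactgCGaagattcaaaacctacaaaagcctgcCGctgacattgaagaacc
SPANXN3: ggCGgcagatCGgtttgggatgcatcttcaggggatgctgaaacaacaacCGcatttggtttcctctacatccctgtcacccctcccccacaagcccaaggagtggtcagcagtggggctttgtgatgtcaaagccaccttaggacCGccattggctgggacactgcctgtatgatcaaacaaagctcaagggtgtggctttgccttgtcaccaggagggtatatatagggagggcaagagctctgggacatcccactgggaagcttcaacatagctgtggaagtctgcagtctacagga

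They were 90.0% identical, with 8 CG dinucleotides at SPANXC and 4 at SPANXN3. Over the 9 SPANX genes with a window, the 5 of the A to D branch had 6 to 9 CG dinucleotides and the 4 of the N branch had 1 to 4. The count for SPANXD is from the other stretch. In gene order the A to D genes and 4 of the N genes share 1 cluster, in which MAGEC1 and MAGEC2, MAGE antigens, were at 12.2 and 33.8 FPKM in treated cells and listed at 0 in DMSO cells. MAGEC3 in the same cluster was at 0.138 FPKM in treated cells and 0 in DMSO cells, and the neuronal genes SLITRK4 and SLITRK2, within and beside it, were at 0.0428 and 0.0482 FPKM in treated cells and 0 in DMSO cells. The 4 N genes were thus near 0 beside some neighbours that were also near 0 and some that were not.

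The CT45A and CT47A families behaved as blocks. CT45A genes, which encode nuclear antigens seen in ovarian cancer, were all listed at 0 in DMSO cells and all 6 were switched on. CT45A1 was at 27.5 FPKM, CT45A3 at 27.2 FPKM, CT45A4 at 22.6 FPKM, CT45A6 at 22.4 FPKM, CT45A2 at 20.3 FPKM and CT45A5 at 13.2 FPKM in treated cells. All 11 CT47A genes, testis antigens of unknown function, were listed at 0 in DMSO cells and lay between 6.31 FPKM, at CT47A6, and 8.01 FPKM in treated cells. Of these, 8 had the same value, 8.01268 FPKM, and CT47A1 and CT47A7 were at 6.90 and 6.82 FPKM. All 55 pairs of CT47A transcripts were at least 98.4% identical, so the copies may not be separate measurements. The family sum was 84.1 FPKM in treated cells and 0 in DMSO cells. The CT45A sum was 133 FPKM in treated cells and 0 in DMSO cells. CT47B1, a relative of CT47A outside the symbols followed here, lies beside the CT47A block and was at 3.24 FPKM in treated cells and 0 in DMSO cells.

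CTAG1A and CTAG1B both encode NY-ESO-1, a target of engineered T cells in clinical trials, and CTAG2 encodes the related antigen LAGE-1. CTAG1A and CTAG1B shared 1 value, 9.65 FPKM in treated cells and 0 in DMSO cells, with transcripts that were 99.0% identical. CTAG2 was at 7.90 FPKM in treated cells and 0 in DMSO cells. LAGE3, the relative of these genes that all cells use as part of a tRNA-modifying complex, was at 9.31 FPKM in treated cells and 3.29 FPKM in DMSO cells, 2.83 times as high in treated cells. In DMSO cells LAGE3 was thus the only one of the 4 above 0.

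The CSAG genes differed least. CSAG2, also called TRAG3 and first found in taxol-resistant cells, was at 2.98 FPKM in treated cells and 1.11 FPKM in DMSO cells. CSAG3, with a transcript 99.9% identical to that of CSAG2, was at 3.19 FPKM in treated cells and 1.11 FPKM in DMSO cells. These were the only members at 1 FPKM or more in DMSO cells, and neither reached a 2-fold difference on the log2(FPKM + 1) scale, although the plain ratios were 2.69 for CSAG2 and 2.88 for CSAG3. CSAG1 was at 7.43 FPKM in treated cells and 0.393 FPKM in DMSO cells and was called higher. The family sum was 13.6 FPKM in treated cells and 2.61 FPKM in DMSO cells, 5.21 times as high in treated cells. The CSAG genes lie among MAGEA genes, and MAGEA2, MAGEA2B and MAGEA12 within the same cluster were at 5.51, 5.58 and 3.53 FPKM in treated cells and listed at 0 in DMSO cells. CSAG genes were therefore already transcribed in DMSO cells beside MAGEA genes that were listed at 0.

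**Figure D2:**
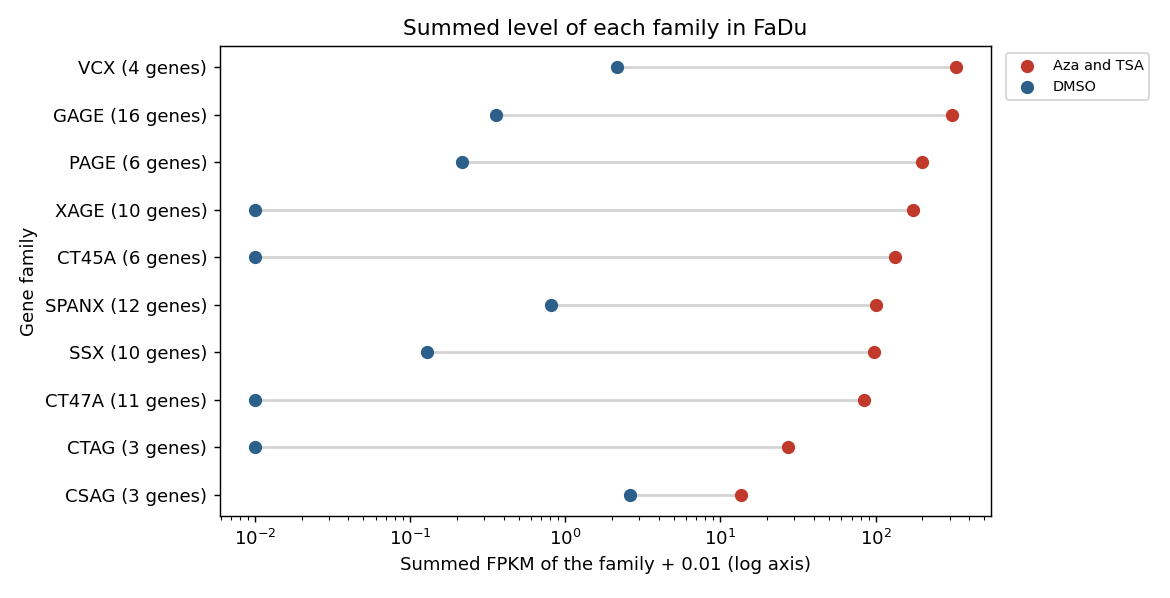
Summed FPKM of each family in the treated library (red) and the DMSO library (blue), on a log axis after adding 0.01, with families ordered by the treated sum. Every row is counted, also rows with equal values or identical transcripts. The treated sums run from 13.6 FPKM for CSAG to 331 FPKM for VCX, and 4 families have a DMSO sum of 0.

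Ordered by the sum of all rows in treated cells, the families ran VCX, GAGE, PAGE, XAGE, CT45A, SPANX, SSX, CT47A, CTAG and CSAG. The middle of this order depends on how copies are counted. With members of equal values counted once, XAGE was at 70.4 FPKM, SPANX at 75.7 FPKM, CT47A at 28.042 FPKM and SSX at 98.0 FPKM in treated cells. With members that are 1 RefSeq gene or have identical transcripts counted once, XAGE was at 35.8 FPKM, SPANX at 67.0 FPKM, CT47A at 36.1 FPKM and SSX at 80.8 FPKM in treated cells. XAGE, at rank 4 with every row counted, then had ranks 7 and 8, while VCX, GAGE and PAGE stayed the first 3, and CTAG and CSAG the last, in every count. With 1 library per group the spread of these sums is unknown, so the order of neighbours such as SPANX at 100.4 FPKM and SSX at 98.0 FPKM in treated cells was not tested. With every row counted, VCX made up 22.5% and GAGE 21.0% of the summed level of all members in treated cells. On the log2(FPKM + 1) scale the difference of the sums ran from 2.02 for CSAG to 7.84 for GAGE. All members together came to 1469 FPKM in treated cells, or 0.284% of the column, and to 6.24 FPKM in DMSO cells, or 0.00127% of the column. VCX and CSAG supplied most of the DMSO sum, at 2.15 and 2.61 FPKM.

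Some low values in DMSO cells were equal between copies. Of the 32 members above 0 in DMSO cells, 22 were under 0.1 FPKM, and 7 had exactly the same DMSO value as another member. GAGE12C, GAGE12E, GAGE12G, GAGE12H and GAGE12J were all at 0.0266 FPKM in DMSO cells, while in treated cells they lay between 14.965 FPKM for the first pair and 25.5 FPKM for GAGE12J. Over both libraries 19 members shared both of their values with another member. The depth of the libraries is unknown from FPKM, so no counting error can be given for such low values, and ratios to them are left out for that reason.

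Other cancer-testis genes were also switched on. Of 24 MAGEA, MAGEB and MAGEC genes under 0.1 FPKM in DMSO cells, 16 (66.7%) were switched on, with a median of 6.80 FPKM in treated cells. Of 19 such genes in a list of 26 single-copy cancer-testis genes, 9 (47.4%) were. Among X-linked genes in RefSeq outside these groups 27 of 404 (6.68%) were switched on, and among autosomal ones 369 of 7626 (4.84%). Copies of a family share sequence, so the members are not independent, and no test was made of these shares. With copies merged where their transcripts were at least 95% identical, 30 of 44 units of the multicopy families (68.2%) and 13 of 21 MAGE units (61.9%) were switched on. Only the 68 members with a GENCODE transcript could be merged, against all 27 MAGE genes. XAGE1C, XAGE1D, XAGE1E and SPANXB2, synonyms of other members, thus stayed separate switched-on units. A unit of merged GAGE copies was over 0.1 FPKM when summed in DMSO cells and is not among the 44. These shares therefore do not rest on like merging, and their difference was not tested.

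**Figure D3:**
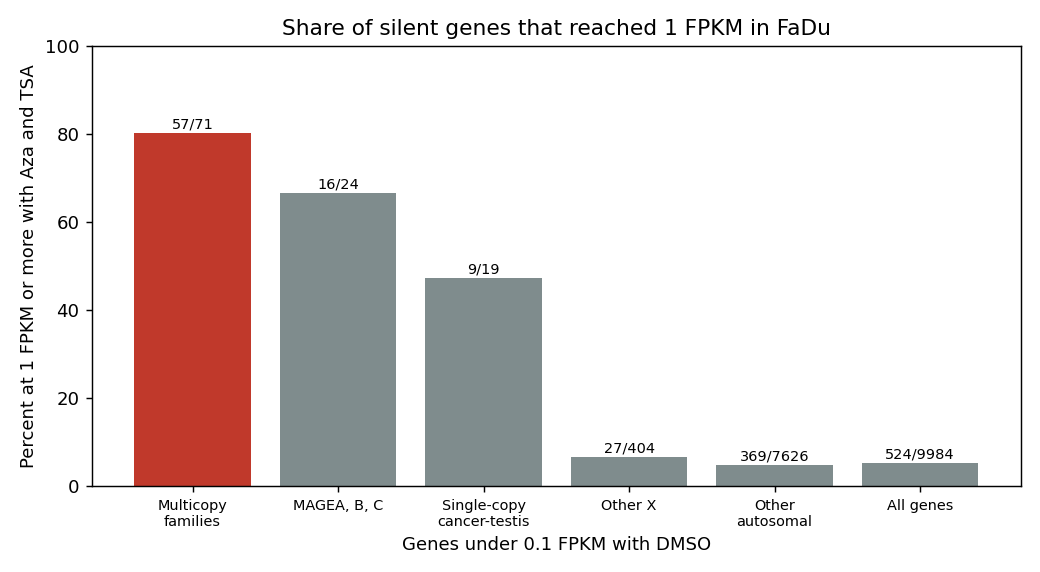
Bars give the percent of genes under 0.1 FPKM in the DMSO library that reached 1 FPKM in the treated library, for the multicopy families (red) and for other classes of genes (grey), with the counts above each bar. The share is 80.3% for the multicopy families with every copy counted, 66.7% for the MAGE genes, 6.68% for other X-linked genes and 5.25% for all genes.

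Genes beside the families were counted in the same way. Members with a coding gene in RefSeq form 10 clusters along the X chromosome, and the 3 nearest coding genes on each side that are in the table and are neither members nor MAGE genes made 60 flanking genes. Of these, 32 reached 1 FPKM in at least 1 library, and 3 of the 32 were higher and none lower, beside 16.1% and 5.21% of all genes, with a median change of 0.12 over all 60 on the log2(FPKM + 1) scale. The 3 were CT47B1, given above, the DNA repair nuclease APEX2, at 24.1 FPKM in treated cells and 10.8 FPKM in DMSO cells, and PORCN, which acylates Wnt proteins, at 5.69 FPKM in treated cells and 2.21 FPKM in DMSO cells. Of 22 flanking genes under 0.1 FPKM in DMSO cells, 1, again CT47B1, was switched on, beside 5.25% of all genes. Between the VCX genes, PNPLA4, a lipase of retinyl esters, was lower, at 4.08 FPKM in treated cells and 10.5 FPKM in DMSO cells, and the steroid sulfatase STS was listed at 0 in treated cells and at 0.00964 FPKM in DMSO cells.

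**Figure D4:**
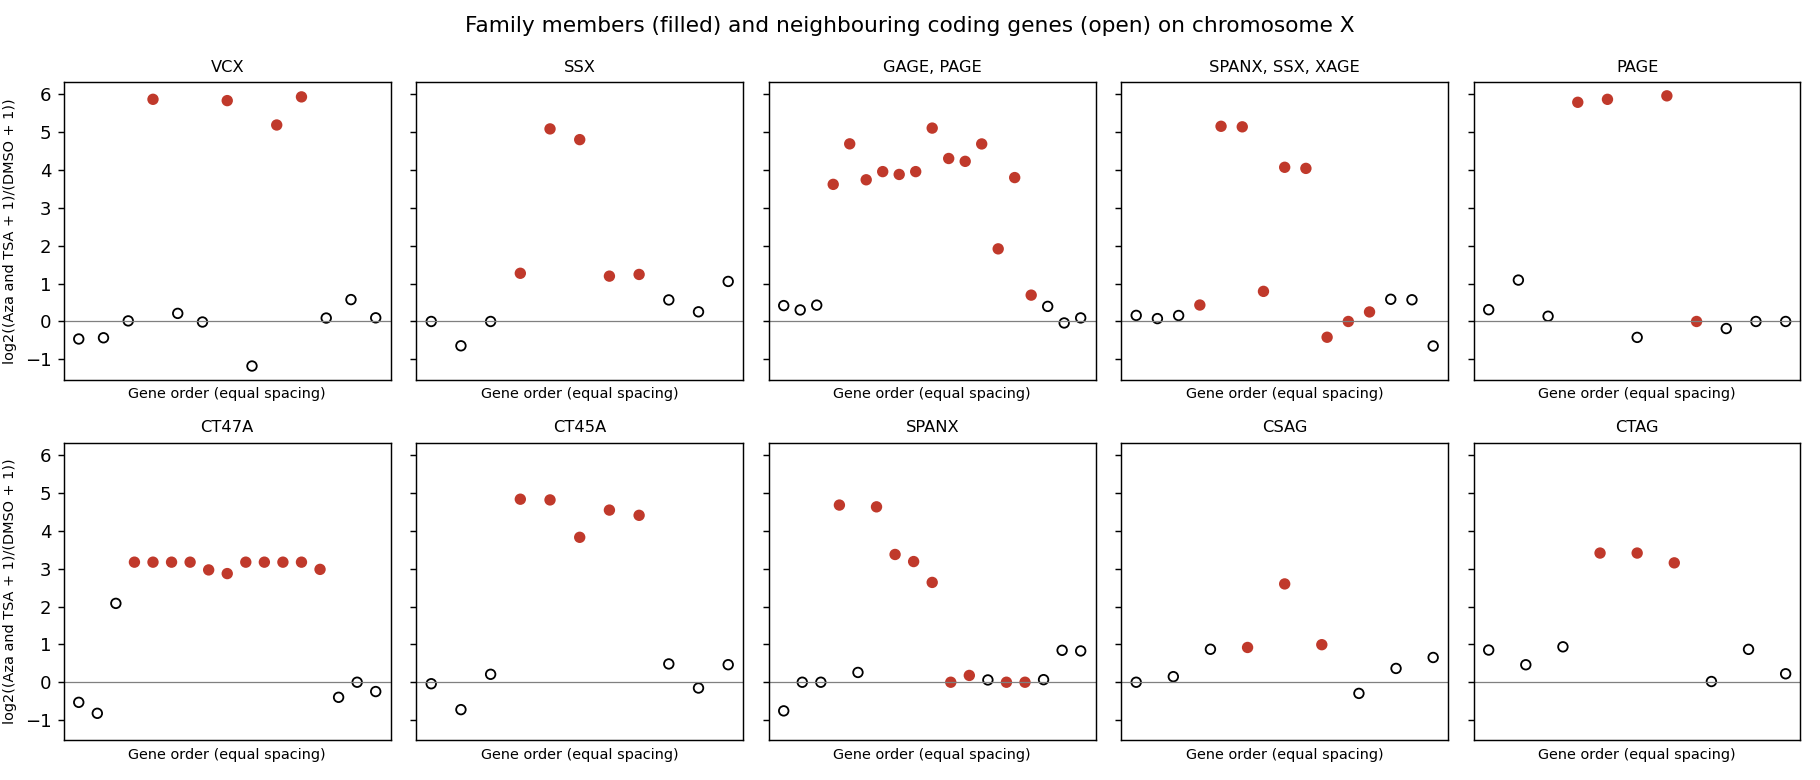
Each panel is 1 cluster of family members on the X chromosome, with genes in chromosome order at equal spacing, and the y axis is the difference between the treated and the DMSO library on the log2(FPKM + 1) scale. Filled points are members and open points are other coding genes within and beside the cluster, without MAGE genes. Of the open points, CT47B1 beside CT47A lies at 2.08, APEX2 beside PAGE at 1.09, PORCN beside SSX at 1.06 and PNPLA4 among VCX at -1.18, and all others lie between -1 and 1.

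Promoter windows were given for 45 of the 81 members. The 35 windows of members at 1 FPKM or more in treated cells had a median of 12 CG dinucleotides, from 1 to 20, and the 10 windows of members under 1 FPKM had a median of 4.5, from 1 to 14. Those medians stand beside 14 over all 27305 genes with a window. VCX3A with 1 CG dinucleotide and VCX2 and VCX3B with 3 each went against this order, since they were at 43.5 FPKM or more in treated cells, and VCX with 16 did not. The VCX window was 57.0% to 57.7% identical to those of VCX2, VCX3A and VCX3B, which were 89.3% to 91.7% identical to each other. It may thus cover another stretch than those windows, and the CG counts of the VCX genes may not be comparable. Of the 35 windows, 11 are GAGE windows that are near copies of each other, with 11 to 13 CG dinucleotides. The 10 windows include those of the SPANXN genes, which are alike and hold 1 to 4. Copies thus weigh on both medians, and the difference between the medians was not tested. The annotated start need not be the start used in FaDu, which was not tested.

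**Figure D5:**
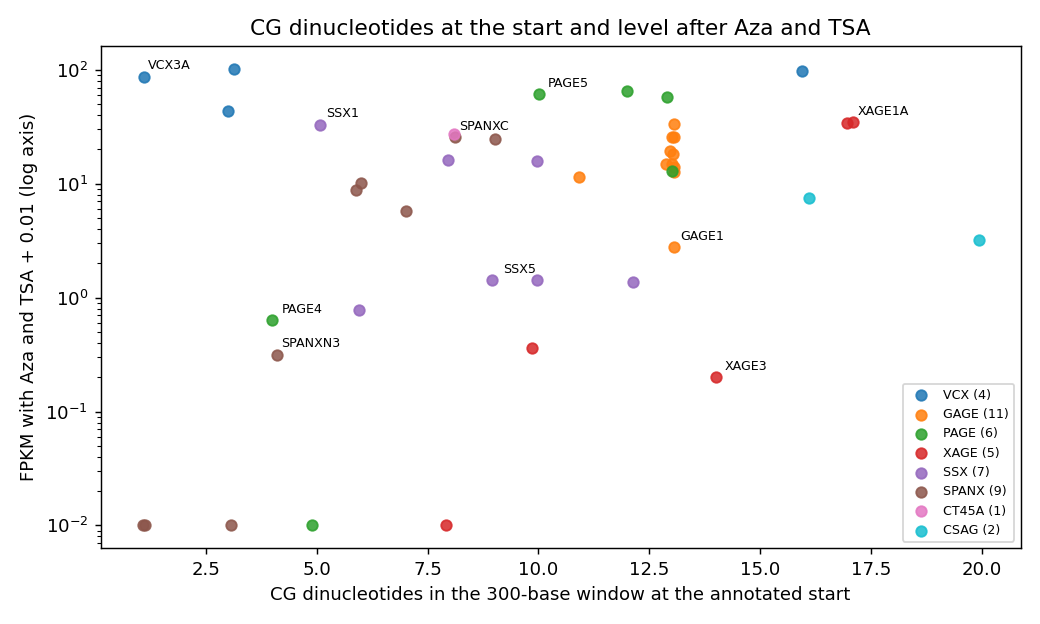
Each point is 1 of the 45 members with a promoter window, with the number of CG dinucleotides in the window on the x axis and FPKM + 0.01 in the treated library on a log y axis, coloured by family, with the number of windows in brackets and points spread slightly sideways. Members listed at 0 lie at the bottom. SPANXN genes lie at 1 to 4 CG dinucleotides and under 1 FPKM, and VCX3A lies at 1 CG dinucleotide and 87.2 FPKM. The VCX3A window may cover another stretch than that of VCX.

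Short motifs, none of which contains another, were searched for on both strands of these windows. CACGTG, the E-box, was found in 16 of 45 member windows (35.6%) and in 7.43% of all windows, but 11 of the 16 are GAGE windows that are near copies of each other, 4 are PAGE windows and 1 is that of XAGE3. GCGCATGC, letters from the consensus of the transcription factor NRF1, was added after the windows had been read. It was found in 17 member windows (37.8%) and in 3.27% of all windows, in 10 GAGE, 3 PAGE, 3 XAGE and 1 SSX gene, among them PAGE5, XAGE1A and GAGE2A printed above. It was also found at XAGE5, which was listed at 0 in both libraries, and in no VCX, SPANX or CSAG window. The ETS core GGAAG was in 57.8% of member windows and 71.9% of all windows, the GC box GGGCGG in 11.1% and 44.6%, the CRE core TGACG in 13.3% and 25.0%, and the TATA box TATAAA in 0% and 12.0%. A match is a run of letters and not a measured binding site.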

How the data were processed

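Polyadenylated RNA of FaDu cells was sequenced with a stranded kit, per the labels' protocols, from 1 library per group. The authors deposited a table of FPKM per gene symbol, per the file headers. TopHat 1.3.2, Cufflinks 2.0.2 and hg19 are named in the submitters' processing notes, and the sources used here do not give the annotation, filters or scaling. FPKM were not rescaled. Of 25593 rows, 45 repeated a symbol and were summed, none of them a member. The change of a gene is log2((treated FPKM + 1)/(DMSO FPKM + 1)), which understates changes of low genes. Genes that reached 1 FPKM in at least 1 library were called higher or lower at 2-fold, and switched on when under 0.1 FPKM in DMSO cells and at 1 FPKM or more in treated cells. The steps were tested on simulated data. Any member could be named, and those named follow the 4 highest of each family, members at 1 FPKM or more in DMSO cells and the lowest above 0, with others added after their values were seen. Members and lists were chosen with earlier results of these data known. Sequences are RefSeq windows on GRCh38.p14, the first listed per gene. Windows were aligned end to end in the listed direction only, so their identity also depends on strand and on where each start is annotated. Transcripts are the longest coding transcript per symbol in GENCODE release 29, or the longest of any type where none is coding, found for 68 members and aligned end to end, with identity as a percent of the longer sequence. RefSeq on GRCh38.p14 gave gene order, and 75 members matched it by symbol or by a synonym of 1 gene. No hg19 coordinate is given. Python 3.11.15, pandas 2.3.3 and Biopython 1.88 were used. Other settings tried were pseudocounts, filters, thresholds, scalings, merged copies and GC correction.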

Additional observations from a re-analysis of the deposited data

How the results depend on the processing

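Of 112 values recomputed under other settings, 109 kept their direction and their side of the 2-fold threshold or, for counts, stayed within the 1.5-fold limit set for calling a count moved. Some of these could not change. Taking the highest row of a repeated symbol altered no member, because no member has one. Dropping the filter could not alter the calls, since a 2-fold difference on this scale already needs 1 FPKM. Counting equal values once left families without them as they were. With GAGE left out, 47 of 65 members were higher and 41 switched on. All 70 family sums recomputed, with those that could not change among them, stayed at least 2-fold higher, from 1.29 to 10.8 on the log2 scale. The 57 switched-on members became 36 when DMSO had to be listed at exactly 0, since 21 of them had a DMSO level above 0. These are 36 of the 49 members listed at 0 in DMSO cells, beside 370 of 7788 genes (4.75%) over the whole table. Merging copies with transcripts at least 95% identical, chosen after seeing the data, left 55 units, of which 39 were higher and 30 switched on, of 44 under 0.1 FPKM in DMSO cells. Fewer units are counted there by construction, and only the 68 members with a GENCODE transcript could be merged. DMSO levels of merged copies were summed before the 0.1 FPKM limit was applied. A unit of GAGE copies and the unit of SPANXA1, SPANXA2 and SPANXD thus exceeded that limit and are not among the 44. Each of those copies was under 0.1 FPKM by itself. Counting copies once in the family sums and merging MAGE genes were also chosen after seeing the data. Members with equal values merged gave 68 units, 50 higher and 44 switched on of 58. With a pseudocount of 5, 59 members and 6.59% of all genes at 1 FPKM or more were higher, and after subtraction of the GC trend, also added later, 63 members and 8.65% were. GC content was known for 68 members (84.0%). With scaling by the median ratio of expressed genes, 63 members and 15% of all genes at 1 FPKM or more were higher. With both columns scaled to the same sum, as in TPM, 69 members and 17.9% were. That sum is larger than the FPKM sum of either column, while the filter and the pseudocount stayed at 1. The counts of 69 and 63 are therefore not at like thresholds. No member was called lower in any setting run. Copies could not be merged by protein identity, because no protein table was used here. Leaving out a library was not possible with 1 per group. No paired analysis was possible because each group has 1 library. Depth is unknown from FPKM, so counting error could not be given.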
